A study of Mus musculus with 33 samples.

Results

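The enzymes that dispose of amino acid nitrogen and carbon in the liver were followed through regeneration in mice. The set comprised 40 genes of the urea cycle and of amino acid breakdown, chosen by name with earlier results of these data known. Counts of members set beside shares of all genes below are therefore a description. Of the 40 genes, 37 were measured among 18193 genes represented on the arrays. A gene was measured where a probe set (the group of probes that reports a transcript) carried its symbol alone, and where several did, the one with the highest mean over all arrays was used. Amt, Sds and Gls2 had no such probe set and were not analysed here. The mice had undergone a 70% partial hepatectomy, surgery in which the larger lobes are taken out and the lobes left behind regrow. Liver RNA was hybridized to Affymetrix mouse genome arrays, which report each transcript as a brightness that was deposited on the log2 scale. There were 33 arrays, 3 biological replicates at each of 11 times: 0 days (d), 0.25 d, 0.5 d, 0.75 d, 1 d, 1.5 d, 2 d, 3 d, 4 d, 7 d and 14 d after surgery. The operation stands in the label of every group, 0 d included, which served as the baseline. No sham-operated group is named, and the labels give no strain, sex or age. Effects of surgery, anaesthesia, feeding and time of day therefore cannot be told apart from those of tissue loss.

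The liver converts ammonia, which is toxic, into urea by a cycle that starts in the mitochondrion with carbamoyl phosphate and ends in the cytosol where arginase releases urea. Amino acid carbon skeletons are broken down by separate routes. Tryptophan and tyrosine go through ring-opening dioxygenases, and methionine through methyl transfer. Leucine, isoleucine and valine go through a mitochondrial dehydrogenase complex and the enzymes after it. Many of these genes are known to respond to glucocorticoid hormone, glucagon and diet in liver.

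The 37 members ranged in mean log2 value from 7.85 (Ass1) to 14.03 (Bhmt). All reached a log2 value of 5, the cut used to filter genes, on all 33 arrays. The brightest probe set of any array lay between 14.80 and 14.89. The mean log2 value of 6 hepatocyte markers, albumin among them, lay between 14.14 and 14.35 on all arrays. The description field of the labels speaks of fat-derived cells, whereas the tissue and source fields give liver, so adipocyte markers were examined as well. The mean of 4 adipocyte markers was 7.06 to 7.86 at 0.25 d and 6.04 to 7.33 at 0.5 d, against 5.02 to 6.08 at 0 d. Among these the droplet protein Cidec and the fatty acid binding protein Fabp4 rose at both times, whereas the adipocyte hormones Adipoq and Retn were not called. The mean of 3 neutrophil markers was 6.47 to 7.07 at 0.25 d and 6.26 to 7.46 at 0.5 d, against 4.88 to 5.16 at 0 d. Of 7 Kupffer cell markers 1 rose and 4 fell at 0.5 d, where 35.2% of all genes were called. Their mean was 7.09 to 7.72 at 0.5 d, against 7.75 to 8.28 at 0 d. At 3 d 4 of them rose and 0 fell, where 21.2% of all genes were called. The Kupffer cell genes Clec4f (adjusted p = 0.000169) and Csf1r (-1.26 ± 0.24, adjusted p = 0.000231) fell at 0.5 d. Marco, also of that list, was higher at 9 times, by 3.68 ± 0.63 at 1 d. Of 6 sinusoidal endothelium markers 1 rose and 3 fell at 0.25 d, where 45.9% of all genes were called. There the endothelial receptor Kdr fell by 1.08 ± 0.16 and Lyve1 rose by 2.64 ± 0.44. The mean of these 6 markers was 7.96 to 8.26 at 0.25 d, against 7.87 to 8.01 at 0 d. Of 2 markers of red cell precursors, Alas2 was lower at 7 times, by 2.19 ± 0.18 at 0.75 d, and Epb42 was called at no time. Replicate 3 of 0.5 d and replicate 1 of 0.25 d had the lowest mean correlations with the other arrays of their own time, 0.97 and 0.973. Replicate 1 of 0.25 d also had the highest 18S ribosomal RNA signal, 12.99, where the lowest of all arrays was 9.59. The part of these features in the results below was not tested, and fewer cells of a type and less RNA per cell cannot be told apart in whole liver. The deposited sample numbers run in 2 sequences, one with 0.25 d, 0.5 d, 0.75 d and 1.5 d and one with the other 7 times. The labels name no batch. A difference between times of the 2 sequences cannot be told apart from any difference between the sequences themselves.

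Between 13 and 21 of the 37 members fell at each time from 0.25 d through 3 d, against 1 at 4 d and 0 after that. By limma's moderated F-test over the 11 times, 32 of 37 members varied at a Benjamini-Hochberg adjusted p under 0.05, where 69.4% of the 13642 genes tested did. The 5 that did not were Cps1, Kmo, Gldc, Bhmt and Got1. Differences are given as the later time minus 0 d on the log2 scale, each ± its standard error (SE) in the fit, with n = 3 arrays at each time, and a gene is said to rise or fall where limma's adjusted p for that comparison was under 0.05. At 0.25 d 6 members rose and 18 fell, with a median difference of -0.41, where 45.9% of all genes were called, 17.2% higher and 28.8% lower. At 0.5 d 3 rose and 21 fell (median -0.47), where 35.2% of all genes were called, 15.8% higher and 19.4% lower. The median over all genes tested was -0.03 at 0.25 d and 0 at 0.5 d. At 0.75 d 3 members rose and 16 fell, where 22.5% of all genes were called, 9.84% higher and 12.7% lower. At 1 d 1 rose and 16 fell, where 17.7% of all genes were called, 8.16% higher and 9.55% lower. At 1.5 d 1 rose and 14 fell (all genes 20%, 8.33% higher and 11.7% lower). At 2 d 1 rose and 16 fell (all genes 22.5%, 11% higher and 11.6% lower). At 3 d 1 rose and 13 fell (all genes 21.2%, 10.2% higher and 10.9% lower). At 4 d a single member was still called, the argininosuccinate lyase Asl, which was lower, with 2.86% of all genes called, 1.88% higher and 0.975% lower. No member was called by limma at 7 d or 14 d, where 0.183% (0.125% higher, 0.0586% lower) and 0.0147% of all genes were, with 3 members at an unadjusted p under 0.05 at 7 d and 0 at 14 d. With array weights the counts at 7 d and 14 d were also 0.

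**Figure D1:**
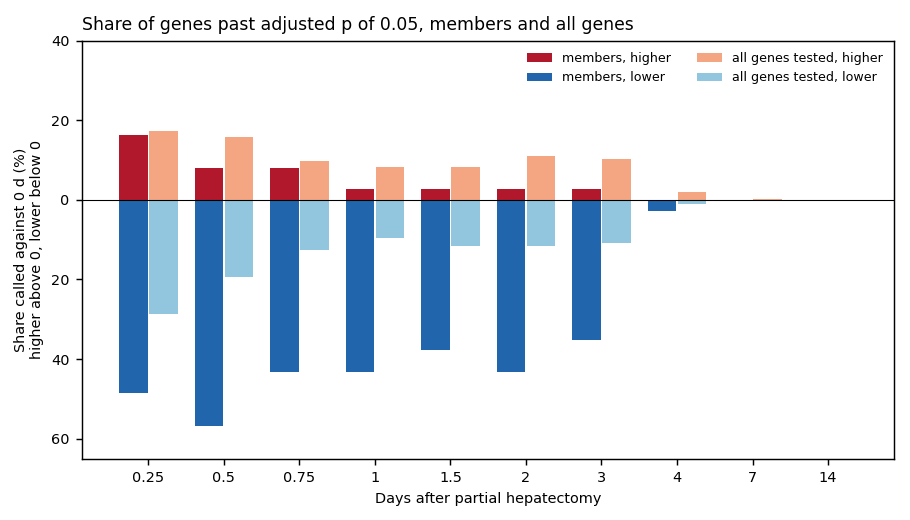
Share of genes called against 0 d at each later time (adjusted p under 0.05), with genes that were higher drawn above 0 and lower ones below it. Dark bars stand for the 37 members and pale bars for all 13642 genes tested. At 0.5 d 21 members lay below and 3 above 0 d.

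The split over all genes depended on scaling. At 0.25 d 2340 genes were higher and 3925 lower as deposited, 3261 and 2957 after quantile normalization, and 3102 and 3489 after a shift to a common median. The members kept their direction on balance, with 6 higher and 17 lower after quantile normalization and 7 and 18 after the shift. At 0.75 d 43.6% of the called genes were higher as deposited and 53.7% after quantile normalization, and at 3 d 48.4% as deposited and 36.9% after the shift. Members were 3 higher and 14 lower at 0.75 d and 0 and 17 at 3 d under those settings. In a fit of the 6 arrays of both times alone, 15 members were called at 0.25 d, and without 0 d replicate 2 or 3 d replicate 2 the count at 3 d was 9.

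Over the whole course 26 members were lower at one or more times and higher at none, 5 were higher and never lower (Slc25a15, Tat, Kmo, Mat1a and Aass), and Asl and Nags were called in both directions. Cps1, Gldc, Bhmt and Got1 were called at no time. Over all genes the shares were 33.7% lower only, 29.9% higher only, 5.23% in both directions and 31.2% at no time. At all 4 times of the first day 11 members were lower, where 5.64% of all genes were: Otc, Haao, Fah, Gnmt, Bckdha, Dbt, Ivd, Mccc1, Hibadh, Uroc1 and Prodh. Slc25a15 alone was higher at all 4, where 2.36% of all genes were.

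**Figure D2:**
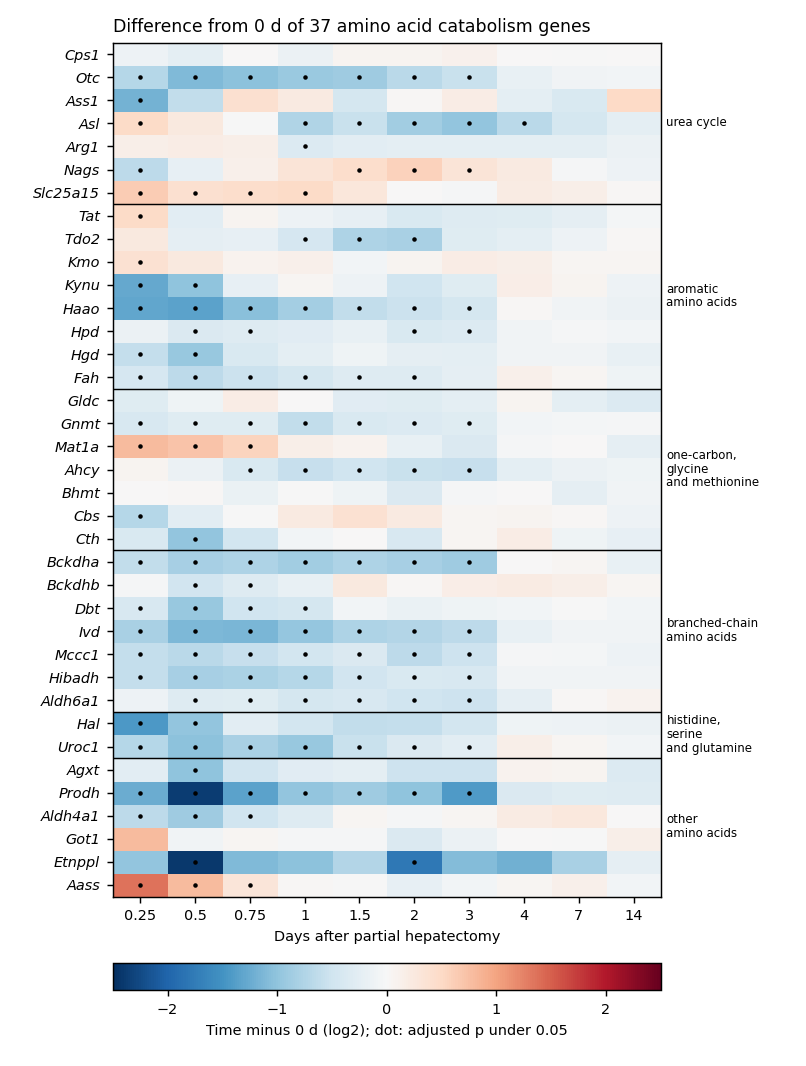
Difference of each later time from 0 d (log2, colour) for the 37 measured members in rows, grouped by pathway, with times in columns. Dots mark adjusted p under 0.05. Blue dominates from 0.25 d to 3 d, Aass, Mat1a and Slc25a15 are red on the first day, and Asl is the only member with a dot at 4 d.

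Promoter sequences are shown for 5 of the members that were called at some time and carried a match to a searched motif. They are Hal, Hgd, Ivd and Tdo2, which fell, and Aass, which rose. Bckdhb, Gnmt, Ass1, Cbs and Slc25a15 also met both conditions and are not shown. RefSeq promoter windows of build GRCm38.p6, 250 bases before to 50 bases after each annotated start, were found for 31 of the 40 listed genes. Capitals mark TTGCNNAA, the core bound by C/EBP factors, in Aass, Hal and Hgd, and ACANNNTGT, the inverted repeat bound by the glucocorticoid receptor, in Hal, Ivd and Tdo2. Both strands were searched, so a capital stretch may read as the reverse complement, and no capital stretch holds more than one motif.
Aass, chr6:23132937-23133236, minus strand: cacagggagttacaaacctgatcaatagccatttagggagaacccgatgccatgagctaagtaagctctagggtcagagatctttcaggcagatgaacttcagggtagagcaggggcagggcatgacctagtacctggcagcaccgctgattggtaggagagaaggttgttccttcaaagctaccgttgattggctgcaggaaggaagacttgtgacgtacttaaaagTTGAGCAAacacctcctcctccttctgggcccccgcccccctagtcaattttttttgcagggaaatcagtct
Hal, chr10:93488518-93488817, plus strand: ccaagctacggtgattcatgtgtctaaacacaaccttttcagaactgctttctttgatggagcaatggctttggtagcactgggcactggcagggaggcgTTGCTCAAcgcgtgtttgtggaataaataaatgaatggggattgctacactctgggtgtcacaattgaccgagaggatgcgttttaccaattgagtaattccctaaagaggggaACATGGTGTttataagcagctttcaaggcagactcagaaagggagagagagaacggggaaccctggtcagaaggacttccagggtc
Hgd, chr16:37579903-37580202, plus strand: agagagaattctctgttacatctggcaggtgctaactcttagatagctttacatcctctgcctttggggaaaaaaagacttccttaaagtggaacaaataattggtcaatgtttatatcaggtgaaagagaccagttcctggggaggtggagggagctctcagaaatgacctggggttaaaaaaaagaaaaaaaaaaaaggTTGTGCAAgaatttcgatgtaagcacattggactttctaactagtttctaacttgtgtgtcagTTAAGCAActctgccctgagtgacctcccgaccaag
Ivd, chr2:118861744-118862043, plus strand: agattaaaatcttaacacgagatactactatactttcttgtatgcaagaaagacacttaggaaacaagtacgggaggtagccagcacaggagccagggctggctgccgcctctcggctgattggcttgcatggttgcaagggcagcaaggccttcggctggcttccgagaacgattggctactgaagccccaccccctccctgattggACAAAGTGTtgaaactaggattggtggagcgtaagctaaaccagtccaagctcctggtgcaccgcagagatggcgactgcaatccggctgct
Tdo2, chr3:81975679-81975978, minus strand: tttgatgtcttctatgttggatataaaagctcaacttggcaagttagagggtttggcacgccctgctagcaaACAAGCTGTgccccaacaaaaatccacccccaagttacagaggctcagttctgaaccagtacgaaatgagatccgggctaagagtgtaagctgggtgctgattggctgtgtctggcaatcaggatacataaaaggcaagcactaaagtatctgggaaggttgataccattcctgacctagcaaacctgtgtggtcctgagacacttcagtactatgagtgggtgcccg
The match lies 22 bases before the start in Aass, 42 bases before it in Ivd and 178 bases before it in Tdo2. TTGCNNAA was found in the windows of 3 of the 31 genes (9.7%) and in 12.2% of all genes with a window. ACANNNTGT was found in 6 of 31 (19.4%), which besides these 3 were Bckdhb, Bhmt and Gnmt, and in 7.9% of all genes. The E-box CACGTG was found in Ass1, Cbs and Slc25a15 (9.7%, against 8.1% of all genes) and TGATGNAA, an ATF4 and C/EBP composite, in Got1 (3.2%, against 4.5%). The cyclic AMP response element TGACGTCA and the HNF4 motif CAAAGTCCA were found in 0 of 31, against 2.0% and 0.6% of all genes. One of the 6, Bhmt, was called at no time.

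The 7 urea cycle genes did not move together. The ornithine transcarbamylase Otc, the second enzyme of the cycle, fell at all 7 times from 0.25 d to 3 d. Its log2 values were 11.87, 11.91 and 11.77 at 0.5 d, against 12.97, 12.95 and 12.96 at 0 d, so the groups did not overlap. The difference was -1.11 ± 0.10 (adjusted p = 3.29e-09), which is 2.16-fold. It was -0.93 ± 0.10 at 1 d, -0.55 ± 0.10 at 3 d and -0.18 ± 0.10 at 4 d, where it was no longer called. Cps1, the entry enzyme, lay between 13.51 and 14.06 on all arrays, with its farthest mean at 0.5 d (-0.24 ± 0.10, adjusted p = 0.0638).

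Asl, which splits argininosuccinate into arginine and fumarate, was called in opposite directions early and late. Its values were 12.44, 12.61 and 12.99 at 0.25 d, against 12.44, 12.23 and 11.92 at 0 d, a difference of 0.48 ± 0.18 (adjusted p = 0.0311) in which replicate 1 of both times was equal. Leaving out 0 d replicate 2 (adjusted p = 0.0542), 0 d replicate 3 (0.168) or 0.25 d replicate 3 (0.18) ended that call. At 3 d the values were 11.45, 10.92 and 11.24, all below the 0 d arrays, and Asl had fallen by 0.99 ± 0.18 (adjusted p = 0.000288). The fall was in place at 1 d (-0.75 ± 0.18) and followed a step of -0.74 ± 0.18 from 0.75 d (adjusted p = 0.0418). The call at 4 d (-0.68 ± 0.18, adjusted p = 0.0379) ended when 0 d replicate 1 (adjusted p = 0.208), 0 d replicate 2 (0.0935), 4 d replicate 2 (0.136) or 4 d replicate 3 (0.123) was left out.

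Nags, which makes the activator of Cps1, ran the opposite course. It fell by 0.65 ± 0.12 at 0.25 d (adjusted p = 7.75e-05), where its values of 8.21, 8.84 and 8.71 lay below the 0 d values of 9.25, 9.18 and 9.27. It rose at 2 d by 0.58 ± 0.12 (adjusted p = 0.000676), with 9.87, 9.87 and 9.70 on the arrays, all above 0 d. The difference was 0.44 ± 0.12 at 1.5 d and -0.03 ± 0.12 at 7 d. At 3 d it was 0.33 ± 0.12 with an adjusted p of 0.0457, a call that was lost when any of 18 arrays was left out, with the highest adjusted p, 0.154, without 3 d replicate 1.

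The mitochondrial ornithine carrier Slc25a15 rose at all 4 times of the first day. Its values were 12.60, 12.42 and 12.93 at 0.25 d, against 12.01, 12.06 and 11.98 at 0 d, and the difference was 0.63 ± 0.12 (adjusted p = 0.000114). The later first-day differences were 0.41 ± 0.12 at 0.5 d, 0.43 ± 0.12 at 0.75 d and 0.47 ± 0.12 at 1 d, and at 2 d it was 0.01 ± 0.12. Without 0.5 d replicate 3 the 0.5 d call was lost (adjusted p = 0.0553), and so was the 0.75 d call without 0.75 d replicate 3 (adjusted p = 0.0654). The arginase Arg1, which releases urea, lay between 13.18 and 14.01 on all arrays and was called lower only at 1 d (-0.35 ± 0.10, adjusted p = 0.0126, and 0.0668 without 0 d replicate 2 or 0.0543 without 1 d replicate 2). It fell by 0.49 ± 0.10 in the step from 0.75 d to 1 d (adjusted p = 0.0118), the same step as Asl.

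Ass1, which joins citrulline and aspartate, was measured only by a dim probe set with a mean of 7.85, while a second probe set carried another symbol beside Ass1 and was not used. Its values at 0.25 d were 5.46, 7.08 and 7.87, against 7.98, 7.92 and 8.07 at 0 d. The difference of -1.19 ± 0.41 (adjusted p = 0.021) was -0.52 without 0.25 d replicate 1 (adjusted p = 0.272), and the call was also lost without 0 d replicate 3 (adjusted p = 0.0542).

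**Figure D3:**
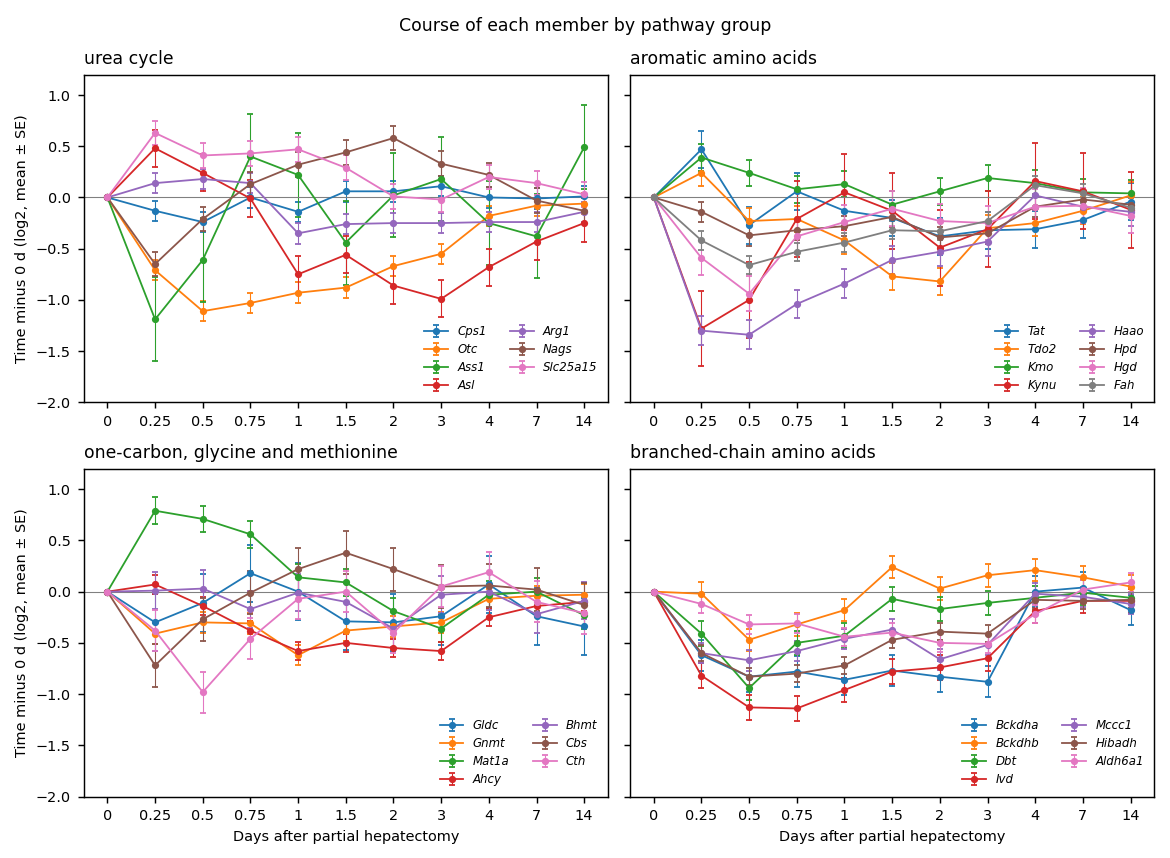
Mean difference from 0 d (log2, with the standard error of the fit, 3 arrays per time) of each member against time, in a panel for each of 4 pathway groups. All 7 branched-chain curves lie below 0 at 0.5 d and 0.75 d, and Bckdhb lies above 0 from 1.5 d on, while the urea cycle curves cross, with Slc25a15 above 0 and Otc at -1.11 at 0.5 d.

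Among the 8 aromatic amino acid genes, Haao, Kynu, Fah, Hgd and Hpd fell on the first day. Tat, the first enzyme of its route, was called lower at no time. Tdo2, also the first of its route, was not called lower before 1 d on its brightest probe set. Haao, the dioxygenase that leads from tryptophan towards NAD, fell at all 7 times from 0.25 d to 3 d. Its values were 10.79, 10.75 and 10.08 at 0.5 d, against 11.83, 12.06 and 11.76 at 0 d, and the difference was -1.34 ± 0.14 (adjusted p = 3.27e-08, 2.54-fold). Its differences shrank to -0.84 ± 0.14 at 1 d, -0.43 ± 0.14 at 3 d (adjusted p = 0.0239, and 0.122 without 0 d replicate 2) and 0.02 ± 0.14 at 4 d.

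Fah, Hgd and Hpd, of tyrosine breakdown, were all lower at 0.5 d. The fumarylacetoacetase Fah fell at all 4 times of the first day and was lowest at 0.5 d (-0.66 ± 0.09, adjusted p = 2.87e-06), with 12.09, 12.02 and 11.94 on the arrays, against 12.64, 12.79 and 12.60 at 0 d. The homogentisate dioxygenase Hgd fell by 0.94 ± 0.17 at 0.5 d (adjusted p = 0.00011), with 12.03, 12.20 and 11.36, against 12.76, 13.02 and 12.63 at 0 d. The dioxygenase Hpd, upstream of Hgd, fell by 0.37 ± 0.10 at 0.5 d (adjusted p = 0.00569), with 13.53, 13.48 and 13.31, against 13.79, 13.92 and 13.70 at 0 d. In all 3 genes the arrays at 0.5 d did not overlap with those at 0 d, as in 40.9% of all genes.

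The enzymes that open these pathways were Tdo2 and Tat. On its brightest probe set the tryptophan dioxygenase Tdo2 was 0.24 ± 0.13 at 0.25 d (adjusted p = 0.142) and fell by 0.77 ± 0.13 at 1.5 d and by 0.82 ± 0.13 at 2 d (adjusted p = 6.59e-05). Its values at 2 d were 12.60, 12.99 and 13.19, against 13.75, 13.93 and 13.54 at 0 d. Its 2 dimmer probe sets were already called lower at 0.5 d (-1.02 ± 0.18 and -1.01 ± 0.23). The tyrosine aminotransferase Tat had 13.46, 13.35 and 13.77 at 0.25 d, against 13.21, 13.12 and 12.84 at 0 d (0.47 ± 0.18, adjusted p = 0.0334), and 12.50, 12.42 and 13.45 at 0.5 d. The 0.25 d call for Tat ended when 0 d replicate 3 (adjusted p = 0.149), 0.25 d replicate 1 (0.0541) or 0.25 d replicate 3 (0.159) was left out. The step from 0.25 d to 0.5 d was -0.74 ± 0.18 for Tat (adjusted p = 0.00436) and -0.47 ± 0.13 for Tdo2 (adjusted p = 0.0121).

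The kynurenine monooxygenase Kmo was called only at 0.25 d (0.39 ± 0.13, adjusted p = 0.0151, and 0.0557 without 0 d replicate 2 or 0.0575 without 0.25 d replicate 3). Kynureninase, Kynu, had 7.88, 9.28 and 9.92 at 0.25 d and 9.83, 9.96 and 8.13 at 0.5 d, against 10.32, 10.18 and 10.42 at 0 d. Its differences of -1.28 ± 0.37 and -1.0 ± 0.37 were past the threshold (adjusted p = 0.00668 and 0.0379). They rested on the 2 arrays that correlated least with their groups: without 0.25 d replicate 1 the first was -0.71 (adjusted p = 0.101), and without 0.5 d replicate 3 the other was -0.41 (adjusted p = 0.397).

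Of the 7 measured one-carbon, glycine and methionine genes, the S-adenosylmethionine synthetase Mat1a rose. Gnmt, Ahcy, Cbs and Cth fell at some time, and Bhmt and Gldc were not called. Mat1a had 13.88, 13.88 and 13.97 at 0.25 d, 13.73, 13.80 and 13.95 at 0.5 d and 13.61, 13.73 and 13.69 at 0.75 d, against 13.06, 13.17 and 13.12 at 0 d. The differences were 0.79 ± 0.13, 0.71 ± 0.13 and 0.56 ± 0.13 (adjusted p = 2.79e-05, 0.000117 and 0.0027), with no overlap at any of these times. By 1 d the difference was 0.14 ± 0.13, and at 3 d it was -0.36 ± 0.13 (adjusted p = 0.05, just short of the threshold before rounding).

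The S-adenosylhomocysteine hydrolase Ahcy moved later. It was 0.07 ± 0.09 at 0.25 d and fell by 0.38 ± 0.09 at 0.75 d, 0.58 ± 0.09 at 1 d and 0.58 ± 0.09 at 3 d (adjusted p = 6.87e-05). Its 1 d values of 13.07, 12.95 and 12.90 all lay below the 0 d values of 13.60, 13.55 and 13.52. The glycine methyltransferase Gnmt, which uses up surplus S-adenosylmethionine, was lowest at 1 d (-0.62 ± 0.10, adjusted p = 0.000107), with 13.04, 13.46 and 13.43, against 14.00, 14.05 and 13.74 at 0 d. It was called lower at all 7 times up to 3 d, and 5 of these calls were lost without 0 d replicate 2 or, at 3 d, without 3 d replicate 2 (adjusted p = 0.241).

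Cystathionine gamma-lyase, Cth, which makes cysteine, fell at 0.5 d only (-0.98 ± 0.20, adjusted p = 0.000331), with 11.61, 11.93 and 12.03, against 12.92, 12.90 and 12.70 at 0 d. The cystathionine synthase Cbs had 10.11, 10.37 and 10.67 at 0.25 d, against 10.69, 11.59 and 11.03 at 0 d. Its difference of -0.72 ± 0.21 (adjusted p = 0.00709) was past the threshold but not without 0 d replicate 2 or 0.25 d replicate 1 (adjusted p = 0.0766 and 0.0515). The betaine methyltransferase Bhmt lay between 13.14 and 14.37 on all arrays and the glycine decarboxylase Gldc between 9.17 and 10.38. Neither was called at any time.

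The 7 branched-chain amino acid genes all fell, and none rose at any time. At 0.5 d and 0.75 d 7 of 7 were called lower, where 19.4% and 12.7% of all genes were. At 0.25 d 5 were (all genes 28.8%), at 1 d 6 (9.55%) and at 4 d 0 (0.975%). At 1.5 d, 2 d and 3 d 5 were, where 11.7%, 11.6% and 10.9% of all genes were. After quantile normalization Aldh6a1 was not called at 0.5 d (adjusted p = 0.0805) or 0.75 d (0.139). Nor were Bckdhb at 0.75 d (0.0667) and Dbt at 0.25 d (0.0611). Their median difference was -0.60 at 0.25 d, -0.83 at 0.5 d, -0.58 at 0.75 d, -0.46 at 1 d, -0.51 at 3 d and -0.06 at 4 d. Ivd, the isovaleryl-CoA dehydrogenase of leucine breakdown, was lowest at 0.75 d, with 9.43, 9.57 and 9.46, against 10.45, 10.90 and 10.51 at 0 d. The difference was -1.14 ± 0.12 (adjusted p = 1.16e-07, 2.2-fold), and no array of 0.25 d to 3 d reached the lowest 0 d value. Hibadh, of valine breakdown, fell by 0.83 ± 0.08 at 0.5 d (adjusted p = 1.21e-08), with 11.79, 11.68 and 11.56, against 12.48, 12.50 and 12.53 at 0 d. The leucine carboxylase subunit Mccc1 fell by 0.67 ± 0.10 at 0.5 d and by 0.66 ± 0.10 at 2 d. Its values at 2 d were 9.60, 9.47 and 9.62, against 10.32, 10.28 and 10.05 at 0 d.

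The E1 and E2 subunits of the branched-chain ketoacid dehydrogenase complex, which commits these amino acids to breakdown, had different courses. The E3 subunit Dld, which other complexes share, was named after its values were seen. It rose by 0.37 ± 0.10 at 0.5 d (adjusted p = 0.00428, and 0.0857 with only the arrays compared) and was higher at 3 times. Bckdha, the E1 alpha subunit, fell at all 7 times up to 3 d by a similar amount, -0.62 ± 0.15 at 0.25 d and -0.88 ± 0.15 at 3 d (adjusted p = 0.000158). Its values at 3 d were 9.65, 9.69 and 9.94, against 10.59, 10.88 and 10.45 at 0 d, and at 4 d they were 10.55, 10.75 and 10.62. Bckdhb, the E1 beta subunit, was -0.02 ± 0.11 at 0.25 d and fell by 0.47 ± 0.11 at 0.5 d (adjusted p = 0.00107). It was also called at 0.75 d (-0.32 ± 0.11), where the adjusted p was 0.0759, 0.132 and 0.193 without 0 d replicate 1, 0 d replicate 2 or 0.75 d replicate 1. From 1 d to 1.5 d Bckdhb rose by 0.41 ± 0.11 (adjusted p = 0.037). The E2 core subunit Dbt fell by 0.94 ± 0.12 at 0.5 d (adjusted p = 7.47e-07) and was -0.07 ± 0.12 at 1.5 d, and its call at 1 d was lost without 0 d replicate 2 (adjusted p = 0.0868). Aldh6a1, which acts late in valine breakdown, moved slowly and was lowest at 3 d (-0.51 ± 0.09, adjusted p = 0.000205), with 11.43, 11.27 and 11.45, against 11.88, 11.88 and 11.91 at 0 d. Its call at 0.5 d was lost without 0.5 d replicate 3 (adjusted p = 0.0527). The call of Aldh6a1 at 0.75 d was lost without 0.75 d replicate 3 (adjusted p = 0.0776).

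**Figure D4:**
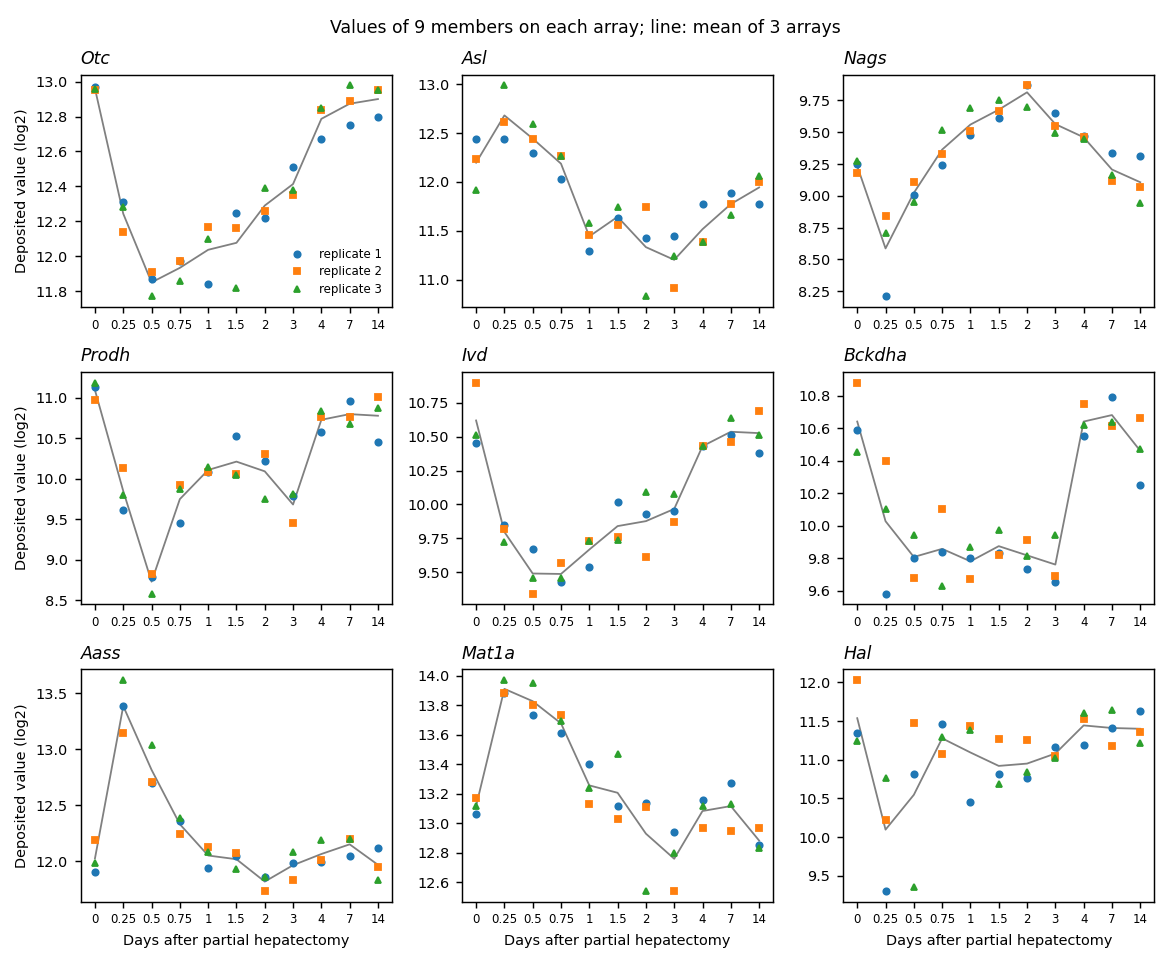
Deposited log2 value of 9 members on each of the 33 arrays against days after partial hepatectomy, with a symbol for each replicate number and a line through the mean of 3 arrays. Bckdha is low at 3 d (9.65 to 9.94) and near its 0 d level at 4 d (10.55 to 10.75). Hal has single low arrays at 0.25 d (9.30) and 0.5 d (9.36).

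Prodh and Aldh4a1, of proline breakdown, fell on the first day, while Aass, of lysine breakdown, rose. The proline dehydrogenase Prodh, the first step of proline breakdown, had 8.79, 8.82 and 8.58 at 0.5 d, against 11.13, 10.97 and 11.19 at 0 d. That is a fall of 2.37 ± 0.17 (adjusted p = 7.86e-11, 5.16-fold), with groups far apart. It recovered in part at 0.75 d (a step of 1.02 ± 0.17, adjusted p = 0.00169). The difference from 0 d was -0.99 ± 0.17 at 1 d and -1.41 ± 0.17 at 3 d, and these times were not tested against each other. The enzyme after it, Aldh4a1, fell by 0.88 ± 0.13 at 0.5 d (adjusted p = 5.79e-06), with 8.22, 8.25 and 7.78, against 9.01, 9.03 and 8.84 at 0 d, and was 0.04 ± 0.13 at 1.5 d and at 3 d. The aminoadipate-semialdehyde synthase Aass, which starts lysine breakdown, had 13.39, 13.15 and 13.62 at 0.25 d, against 11.90, 12.19 and 11.98 at 0 d. It rose by 1.36 ± 0.11 (adjusted p = 1.99e-09, 2.57-fold), the largest rise of any member, and by 0.79 ± 0.11 at 0.5 d. At 0.75 d the difference was 0.31 ± 0.11 (adjusted p = 0.0479), a call lost when any of 18 arrays was left out, with the highest adjusted p, 0.176, without 0 d replicate 1.

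Both measured histidine genes were lower early. Urocanase, Uroc1, fell at all 7 times from 0.25 d to 3 d and was lowest at 0.5 d, with 10.54, 10.50 and 10.24, against 11.37, 11.59 and 11.38 at 0 d (-1.02 ± 0.10, adjusted p = 9.41e-09). Its calls at 2 d and 3 d were lost without 0 d replicate 2 (adjusted p = 0.0544 and 0.199). Histidine ammonia-lyase, Hal, the step before it, had 9.30, 10.22 and 10.77 at 0.25 d, against 11.34, 12.03 and 11.24 at 0 d, and fell by 1.44 ± 0.37 (adjusted p = 0.0024). At 0.5 d Hal had 10.81, 11.47 and 9.36, which overlapped 0 d. That difference of -0.99 ± 0.37 (adjusted p = 0.0363) was -0.40 without 0.5 d replicate 3 (adjusted p = 0.394) and was also lost without 0 d replicate 2 (adjusted p = 0.171).

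The 0 d arrays of Etnppl, Agxt and Got1 each spread over more than 1 log2 unit. The phosphoethanolamine phospholyase Etnppl had 9.03, 9.45 and 9.50 at 0.5 d, against 12.00, 12.28 and 10.96 at 0 d, and fell by 2.42 ± 0.45 (adjusted p = 0.00015). It was called lower again at 2 d (-1.78 ± 0.45, adjusted p = 0.00538). The alanine-glyoxylate aminotransferase Agxt fell at 0.5 d only (-1.0 ± 0.20, adjusted p = 0.000337, and 0.0608 with only the arrays compared), and its 0 d arrays spread from 11.23 to 12.29. The aspartate aminotransferase Got1 had 12.48, 12.18 and 13.25 at 0.25 d, against 11.95, 12.44 and 11.13 at 0 d, and its difference of 0.80 ± 0.33 missed the threshold (adjusted p = 0.0519). The 0 d livers also differed in the clock output gene Dbp, which read 11.05, 11.65 and 8.36 on them. Of 13 clock genes 2 rose and 6 fell at 0.25 d, where 45.9% of all genes were called, and 1 rose and 5 fell at 0.5 d, where 35.2% were. Their part in these differences was not tested.

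Members called against 0 d numbered 24 at 0.5 d, 14 at 3 d and 1 at 4 d. At those times 35.2%, 21.2% and 2.86% of all genes were called. In the step from 3 d to 4 d 10 members rose and 0 fell, where 6.25% of all genes were called and 3.03% were called higher. They were Otc, Haao, Fah, Ahcy, Bckdha, Ivd, Mccc1, Hibadh, Uroc1 and Prodh, by 0.33 to 1.04 on the log2 scale. Prodh moved most (1.04 ± 0.17, adjusted p = 0.000509), with 10.58, 10.77 and 10.84 at 4 d, against 9.79, 9.45 and 9.81 at 3 d. Bckdha rose by 0.88 ± 0.15 (adjusted p = 0.00118). The count was 6 after quantile normalization, 6 without 3 d replicate 1, 4 without 3 d replicate 2, 3 without 4 d replicate 2 and 5 without 4 d replicate 3.

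Of the other steps, that from 0.25 d to 0.5 d held the most calls. There Nags rose and 12 members fell, where 21.2% of all genes were called, 16% higher and 5.25% lower. Prodh fell further (-1.12 ± 0.17, adjusted p = 3.01e-05), and Aass fell by 0.57 ± 0.11 from its peak (adjusted p = 0.000608). The count was 7 without 0.25 d replicate 3, 8 without 0.5 d replicate 2 and 1 with only the 6 arrays compared. From 0.5 d to 0.75 d 2 members rose (Dbt and Prodh) and Aass fell, where 2.29% of all genes were called, 1.23% higher and 1.06% lower. From 0.75 d to 1 d Asl and Arg1 fell, where 1.17% of all genes were called, 0.594% higher and 0.579% lower. From 1 d to 1.5 d Bckdhb and Uroc1 rose, where 2.1% of all genes were called, 1.14% higher and 0.968% lower. With single arrays left out, these 3 counts ranged over 1 to 6, 0 to 2 and 0 to 2, the 6 without 0.5 d replicate 2. With array weights they were 3, 9 and 6. No member was called by limma from 1.5 d to 2 d (1.6% of all genes), 2 d to 3 d (0.418%), 4 d to 7 d (0%) or 7 d to 14 d (0%), with 6, 4, 2 and 2 members at an unadjusted p under 0.05. With array weights those counts were 1, 1, 0 and 0.

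A further comparison used the same first-day arrays without those of 0 d. At 7 d and 14 d, against the mean of the 4 first-day times, 22 members were higher and 5 lower, where 43.7% of all genes were called, 22.8% higher and 21% lower. All 7 branched-chain genes were among the higher ones, with a median difference of 0.53, and both histidine genes. The 5 lower ones were Asl, Arg1, Slc25a15, Mat1a and Aass. The difference was 1.18 ± 0.10 for Prodh, 0.92 ± 0.07 for Ivd and 0.87 ± 0.06 for Otc (adjusted p = 8.34e-10, 2.25e-10 and 1.71e-11), and -0.67 ± 0.08 for Mat1a (adjusted p = 2.15e-07). The 1.5 d arrays, which belong to the shorter sequence of sample numbers, were set against the mean of 1 d and 2 d from the longer one. By limma 0 of 37 members differed there, where 0.022% of all genes did, with 3 members at an unadjusted p under 0.05 and 0 with array weights.

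Likeness of course was described by Pearson's r over the 11 time means, which share the arrays of each time and so carry no p. The 21 pairs among the 7 branched-chain genes had a median r of 0.72 (0.12 to 0.98), the 28 pairs of aromatic genes 0.36, the 21 pairs of one-carbon genes 0.03 and the 21 pairs of urea cycle genes -0.29 (-0.87 to 0.91). Pairs of an aromatic with a branched-chain gene had a median of 0.54, and pairs of a urea cycle with a branched-chain gene -0.03.

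For 11 members a further probe set carried the same symbol alone. At the time when the brighter one was farthest from 0 d, the next brightest had the same sign in 11 of 11 and a larger difference in 7. The widest gap was that of Etnppl at 0.25 d, where the brightest probe set, with a mean of 10.71, stood at -0.99 ± 0.45 (adjusted p = 0.0771) and the other, with a mean of 6.49, at -3.85 ± 0.62 (adjusted p = 2.06e-05). The probe sets of Tdo2 also differed. Its brightest probe set, with a mean of 13.48, was called lower at 1 d, 1.5 d and 2 d, and its 1 d call (-0.42 ± 0.13, adjusted p = 0.0281) was lost without any of 5 arrays, with the highest adjusted p, 0.151, without 0 d replicate 2. The other 2 probe sets, with means of 11.22 and 10.73, stood at -1.02 ± 0.18 and -1.01 ± 0.23 at 0.5 d (adjusted p = 7.16e-05 and 0.000991) and at -1.56 ± 0.18 and -1.55 ± 0.23 at 1.5 d. The second probe set of Slc25a15, with a mean of 10.3, rose by 1.09 ± 0.22 at 0.25 d (adjusted p = 0.000327), more than the 0.63 ± 0.12 of the brighter one. Otc's dimmest probe set, with a mean of 7.04, was at -1.97 ± 0.35 at 0.25 d, where the others were at -0.71 ± 0.10 and -0.49 ± 0.14. Cps1, Bhmt, Gnmt and Hpd, each measured by 1 probe set with a mean of 13.61 to 14.03, have no dimmer probe set to set beside them.

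**Figure D5:**
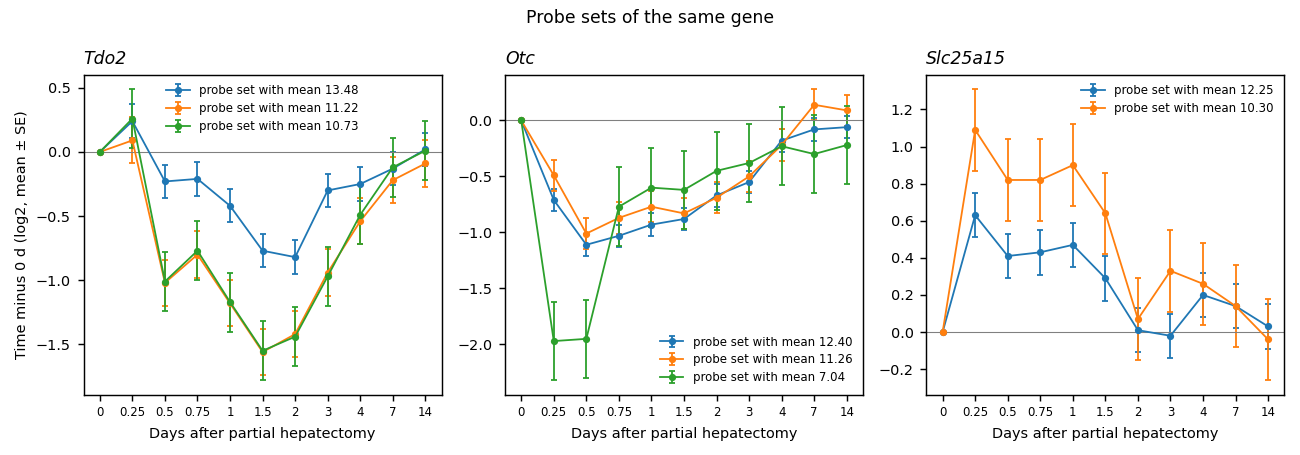
Mean difference from 0 d (log2, with the standard error of the fit, 3 arrays per time) of each single-symbol probe set of Tdo2, Otc and Slc25a15 against time, labelled by its mean over all arrays. The 2 dimmer Tdo2 probe sets lie near -1.56 at 1.5 d where the brightest lies at -0.77.

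Other genes of the same pathways were counted from lists beside the members. Over all genes 45.9% were called at 0.25 d, 35.2% at 0.5 d and 21.2% at 3 d. Of 17 other branched-chain genes 2 rose and 11 fell at 0.25 d, 3 rose and 13 fell at 0.5 d, and 0 rose and 12 fell at 3 d. Ppm1k, the phosphatase that activates the dehydrogenase complex, had 9.01, 9.04 and 8.45 at 0.5 d, against 10.63, 11.03 and 10.40 at 0 d (-1.85 ± 0.21, adjusted p = 1.96e-07). Acadsb, of isoleucine breakdown, was lowest at 3 d (-1.01 ± 0.10), Mcee fell by 0.97 ± 0.09 at 0.5 d, and Mmab by 1.14 ± 0.21 at 0.25 d. From 3 d to 4 d 8 of these 17 genes rose and 0 fell.

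Of 11 other aromatic genes 0 rose and 7 fell at 0.25 d, 10 fell at 0.5 d and 3 fell at 3 d. Afmid, the formamidase that makes kynurenine, had 7.84, 6.99 and 6.91 at 1 d, against 9.92, 10.31 and 10.07 at 0 d (-2.85 ± 0.22, adjusted p = 4.81e-09). Qprt, which makes an NAD precursor after Haao, fell by 1.18 ± 0.17 at 0.25 d, and the kynurenine transaminase Kyat1 and the dioxygenase Ido2 fell by 1.17 ± 0.19 and 1.10 ± 0.20 at 0.5 d.

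Of 27 other one-carbon, glycine and sulfur genes 2 rose and 17 fell at 0.25 d, 3 rose and 17 fell at 0.5 d, and 3 rose and 6 fell at 3 d. Gamt and Gatm make creatine. Gamt fell by 1.96 ± 0.17 at 0.75 d, and Gatm fell by 1.56 ± 0.24 at 0.25 d and was called higher at 4 times. Nnmt, which methylates nicotinamide, rose by 1.73 ± 0.23 at 0.25 d. Psat1, of serine synthesis, had 5.99, 5.25 and 6.27 at 2 d, against 3.95, 4.01 and 4.00, near the floor of the measurement, at 0 d. It was called higher at 2 d (adjusted p = 0.000817). No size is given for that difference, since its 0 d values are near the floor. Of 10 other histidine, serine, proline and lysine genes 1 rose and 5 fell at 0.25 d and 2 rose and 6 fell at 0.5 d. They included the histidine gene Amdhd1 (-1.19 ± 0.29 at 0.25 d) and the lysine gene Dhtkd1 (-1.10 ± 0.24 at 2 d).

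Nitrogen handling genes beside the cycle were called in both directions. Of 11 genes 2 rose and 3 fell at 0.25 d and 1 rose and 3 fell at 0.5 d, shares close to the 45.9% and 35.2% of all genes called. The alanine transaminase Gpt fell by 0.79 ± 0.12 at 0.5 d. Gpt2, another alanine transaminase, rose by 0.81 ± 0.24 at 0.25 d (adjusted p = 0.00678) and fell by 1.02 ± 0.24 at 1 d, and the asparaginase Aspg by 1.16 ± 0.21 at 1.5 d. The asparagine synthetase Asns stood at 8.61, 8.72 and 7.99 at 2 d, against 6.11, 8.45 and 6.04 at 0 d. Its difference was 1.57 ± 0.44 (adjusted p = 0.00981), and the adjusted p was 0.0794 when 0 d replicate 1 was left out, 0.0748 when 0 d replicate 3 was, and 0.134 with only the arrays compared.

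Of 13 known regulators of these pathways 5 rose and 4 fell at 0.25 d, where 45.9% of all genes were called, and 4 rose and 4 fell at 0.5 d, where 35.2% were. The glucocorticoid receptor gene Nr3c1 had 7.62, 8.34 and 8.28 at 0.25 d, against 9.24, 9.31 and 9.37 at 0 d (-1.23 ± 0.15, adjusted p = 5.75e-07), and was lower at all 7 times up to 3 d. Cebpa, a factor of resting hepatocytes, fell by 1.61 ± 0.23 at 0.5 d (adjusted p = 3.71e-06), while Cebpb rose by 1.17 ± 0.24 at 0.25 d (adjusted p = 0.000325). Klf15, known to drive amino acid breakdown genes, had 7.24, 8.97 and 9.85 at 0.25 d, against 10.73, 10.47 and 10.21 at 0 d (-1.78 ± 0.36, adjusted p = 0.000252, and 0.0554 with only the arrays compared). Its lowest array at that time was replicate 1, which also held the lowest values of Ass1, Kynu and Hal.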

How the data were processed

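Trizol was used to extract the RNA, of which 5 µg per sample was labelled with biotin for Affymetrix 3' expression arrays, per the labels' protocols. The authors deposited 1 table of log2 values for 45101 probe sets on 33 arrays. RMA, which in general corrects background, quantile-normalizes and summarizes probes, is named per the submitters' processing notes, and its version and settings are not given in the sources used here. Array medians lay between 5.32 and 5.38.

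Probe sets with exactly 1 gene symbol in the platform annotation (34945) were kept, and per gene the one with the highest mean over all arrays, which gave 18193 genes. Genes with a log2 value of at least 5 on at least 3 arrays (13642) were fitted over all 11 times with limma 3.58.1 in R 4.3.3, and p-values were adjusted by Benjamini-Hochberg over all of them. The deposited values were not normalized again. All members are named. Of each list of other pathway genes up to 4 are named, those past the F-test with the largest difference from 0 d, and of regulators, clock and marker genes any. Dld is named besides these. The members and lists were chosen with earlier results of these data known. The fit was tested on simulated data. No 2 arrays held the same values. The labels call the samples biological replicates, and 3 arrays per time limit the precision. Alternatives were other scalings, filters, probe-set rules and fits, a replicate block, and leaving out each array. Figures were drawn with Python 3.11.15, pandas 2.3.3 and matplotlib 3.10.9.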

Additional observations from a re-analysis of the deposited data

Results flagged for a closer look

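Asl and Nags were the members called in opposite directions against 0 d at different times, and in both the difference between those times was itself tested with limma. Asl averaged 11.21 at 3 d and 12.68 at 0.25 d, and 0.25 d minus 3 d was 1.47 ± 0.18 (adjusted p = 4.02e-07). Nags averaged 9.81 at 2 d and 8.59 at 0.25 d, and 2 d minus 0.25 d was 1.23 ± 0.12 (adjusted p = 7.36e-09). Both pairs of times were chosen from the same arrays as the test.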

How the results depend on the processing

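Of 131 member differences called against 0 d, 89 were called under every setting tried, 34 were lost under at least 1 of 11 other settings and 33 with at least 1 array left out. None of them changed direction. With only the arrays compared, the members called were 15 at 0.25 d (24 in the fit of all arrays) and 0 at 4 d (1), and in the steps to 0.5 d, 0.75 d and 1.5 d they were 1 (13), 0 (3) and 1 (2). Fewer arrays enter that fit. In the step to 1 d (2) the count was 1 with no filter, 9 with array weights and 1 with the replicate block. Array weights gave 6 in the step to 1.5 d, 1 in the step to 2 d (0) and 1 in the step to 3 d (0). Quantile normalization gave 6 in the step to 4 d (10). The causes of these shifts were not tested.

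Leaving out each array in turn gave 31 to 33 members varying over time. Against 0 d it gave 19 to 25 at 0.25 d, 20 to 25 at 0.5 d, 15 to 20 at 0.75 d, 14 to 19 at 1 d, 13 to 16 at 1.5 d, 14 to 19 at 2 d, 9 to 16 at 3 d, 0 to 1 at 4 d and 0 to 0 at 7 d and 14 d. In the steps it gave 7 to 15 at 0.5 d, 1 to 6 at 0.75 d, 0 to 2 at 1 d and at 1.5 d, 0 to 0 at 2 d, 0 to 1 at 3 d, 3 to 11 at 4 d and 0 to 0 at 7 d and 14 d. At 1.5 d against its neighbours it gave 0 to 0, and at 7 d and 14 d against the first day 23 to 28.

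Little sign of pairing by replicate number was seen: in 1 of 55 pairs of times all same-numbered arrays deviated together (correlation over 0.1). The mean correlation was 0.017 for equal and -0.007 for other numbers. Deviations were taken from the mean of 3 arrays, which ties these means to each other. The replicate block lost 1 of 131 calls, Nags at 3 d (adjusted p = 0.0565). Signals near log2 5 and near the top of the scale limit what the arrays can show.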
